A study of Mus musculus with 2 samples.

Results

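Runx1 and 9 other transcription factors of blood development (Cbfb, Tal1, Lmo2, Lyl1, Gfi1, Gfi1b, Myb, Spi1 and Klf1) were followed through the aorta-gonads-mesonephros region (AGM) of the mouse embryo, 10 of the 31053 genes counted. They were listed by name, with earlier results of these data known. Whole, unsorted AGMs of embryonic day 11 were dissociated with collagenase, and single cells were sequenced from the 3′ end of their RNA on the 10x Chromium system. The PDGFRB +/+ (WT) and PDGFRB -/- (KO) embryos gave 1 library each, both loaded for 7000 cells. The PDGFRβ KO mice are a constitutive knockout line bred from heterozygotes on a C57BL/6J background, not limited to 1 cell type, and the labels do not give the number of embryos in a library. The comparison between the libraries addresses whether blood factors differ in level where PDGFRβ is absent. With 1 library per genotype, genotype, library and embryo cannot be told apart, no test was made, and the 95% intervals in parentheses give counting error only.

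RUNX1 binds DNA as a heterodimer with CBFβ and is required for the endothelial-to-hematopoietic transition, in which endothelial cells of the dorsal aorta give rise to the first hematopoietic stem cells. TAL1 and the related LYL1 are basic helix-loop-helix factors that pair with E proteins, and LMO2 bridges them to GATA factors and LDB1. GFI1 and GFI1B are repressors downstream of RUNX1 that silence endothelial genes with the KDM1A and RCOR1 complex. MYB maintains definitive progenitors, SPI1 (PU.1) drives myeloid fate, and KLF1 activates the globin and membrane genes of red cells.

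Positions are those of GENCODE M21 on GRCm38. Runx1 lies at chr16:92601466-92826149 on the minus strand, Cbfb at chr8:105170674-105217989 (plus), Tal1 at chr4:115056426-115071755 (plus), Lmo2 at chr2:103957986-103981878 (plus) and Lyl1 at chr8:84701457-84704715 (plus). Gfi1 lies at chr5:107716657-107726036 (minus), Gfi1b at chr2:28609450-28621982 (minus), Myb at chr10:21124935-21160984 (minus), Spi1 at chr2:91082390-91115756 (plus) and Klf1 at chr8:84901928-84905291 (plus). None of the 10 overlaps another counted gene on its own strand, so their reads are not shared with a neighbour. Promoter windows of RefSeq on GRCm38, from 250 bases before to 50 after a start site, were matched for 8 members (11 windows), and Lmo2 and Spi1 had no entry. Distances below count from the RefSeq start site, which is not the gene start of GENCODE given above for Klf1 and for the distal start of Runx1. Stretches of Klf1, Gfi1b, Tal1 and Runx1 are shown as examples, with the motif in capitals. They held letters of motifs bound by these factors or by the GATA factors. These members were read in erythroid, megakaryocyte or white blood barcodes, as was Lyl1, whose match is not shown.
Klf1, chr8:84901842-84901931, plus strand, 140 to 51 bases before the start site: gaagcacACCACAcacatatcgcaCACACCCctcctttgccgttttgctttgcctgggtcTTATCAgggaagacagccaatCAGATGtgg
Gfi1b, chr2:28622082-28622117, minus strand, 135 to 100 bases before the start site: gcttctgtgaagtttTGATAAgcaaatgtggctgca
Tal1, chr4:115056211-115056236, plus strand, 215 to 190 bases before the start site: atagagtcttTTATCTttgagcaatt
Runx1, distal start, chr16:92826025-92826054, minus strand, bases 21 to 50 after the start site: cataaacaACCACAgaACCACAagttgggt

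The Klf1 stretch held 4 motifs in this order, a RUNX motif on the other strand, a CACCC motif, a GATA motif on the other strand and an E-box. The Gfi1b and Tal1 stretches each held a GATA motif, and the Runx1 stretch held 2 RUNX motifs on the other strand. Matches not printed were a CACCC motif of Lyl1, E-boxes of Tal1 and Myb, and the ETS motifs named below. Both strands of all 32851 promoter windows, of 27025 genes, were searched with the same letters. The RUNX motif was TGTGGT and stood in 16.8% of all windows. The GATA motif was read as AGATAA and also as TGATAA, which together stood in 18.6%. The E-box was read as CAGATG and also as CAGCTG, which stood in 30.6%. The CACCC motif, of the kind KLF1 binds, was CACACCC and stood in 7.95%. The ETS motif AGGAAG, of the class SPI1 binds, stood in 35.4% of all windows and in windows of Runx1, Cbfb and Gfi1. A match describes letters, not a bound site, and 3′ counts do not tell which start site a transcript used.

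Barcodes with at least 2000 UMIs and under 10% mitochondrial UMIs were used, 8253 in WT with a median of 13321 UMIs and 8165 in KO with a median of 12391. The library labels held for the deleted gene, with Pdgfrb at 43.1 CPM (counts per 1000000 UMIs) in WT against 7.09 CPM in KO, where 801 barcodes still held a UMI. Classes were gated by lists of up to 12 marker genes that held no member. WT and KO gave 656 and 193 erythroid barcodes (7.95% and 2.36%, log2 KO over WT −1.75, −1.99 to −1.52), 141 and 128 macrophages, 24 and 22 other white blood barcodes, and 7 and 7 megakaryocytes. Endothelial barcodes numbered 69 and 72, and mesenchymal barcodes 5131 and 5371, while 536 and 532 passed more than 1 gate and were set apart. All 11 erythroid, 12 macrophage, 12 endothelial and 12 mesenchymal markers had UMIs in their own class in both libraries. The gates are set on these same markers, so this is largely ensured by them and is no check of the classes. Depth differed most in endothelial barcodes, with medians of 18488 UMIs in WT and 31551 in KO, and in megakaryocytes, with 5044 and 23811.

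The members differed in the share of their UMIs read outside blood and endothelium. Of the Spi1 UMIs, 2.32% in WT and 1.73% in KO lay outside the blood and endothelial gates, and of the Tal1 UMIs 1.28% and 3.36%. By contrast, 70.9% (68.8 to 73.0) of 1828 Runx1 UMIs in WT and 79.4% of 2272 in KO lay outside those gates, mostly in mesenchymal barcodes (57.1% and 61.4%). Myb was spread in the same way, with 75.8% and 81.4% outside, and so was Cbfb, with 91.7% and 93.4%. Between these lay Lmo2, with 10.4% and 12.6% outside, Gfi1, with 27.3% of 22 and 14.3% of 7 UMIs, and Klf1, with 4.71% in WT and 25.5% in KO. These shares follow the number of barcodes as well as the level in each, since mesenchymal barcodes made up 62.2% of the WT library.

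**Figure D1:**
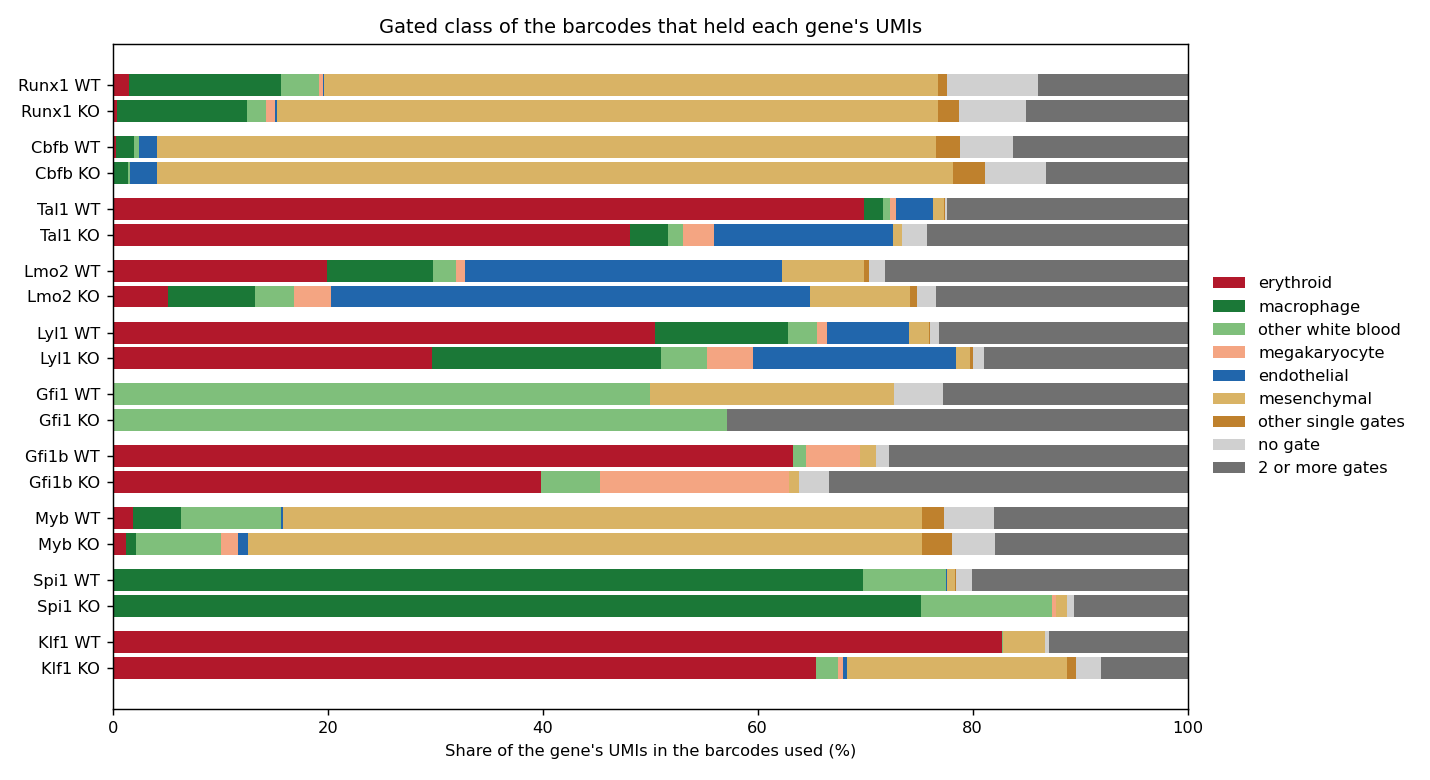
Percent of each member's UMIs (horizontal axis) by the class of the barcode they were read in, with the WT and KO library as neighbouring bars. The Spi1 bars are mostly macrophage (69.8% and 75.2%) and the Klf1 bars mostly erythroid (82.8% and 65.4%), whereas most of the Runx1, Cbfb and Myb bars are mesenchymal or other non-blood barcodes.

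Levels between the libraries were compared within classes, for members with at least 20 UMIs in both libraries together. In erythroid barcodes 0 of 7 members lay past 2-fold, where 14.3% of all genes did. In macrophages 1 of 7 did (Myb, lower in KO) against 3.91% of all genes, and in other white blood barcodes 1 of 6 (Cbfb, lower in KO) against 9.94%. In endothelial barcodes 0 of 4 did against 3.6%, and in mesenchymal barcodes 1 of 7 (Lyl1, from 15 to 6 UMIs, with an interval of −2.95 to 0.15) against 5.78%. The median log2 ratio of the members was −0.29 in erythroid barcodes (all genes −0.38), 0.02 in macrophages (−0.03), −0.18 in other white blood (−0.13), −0.10 in endothelial (0.01) and 0.02 in mesenchymal barcodes (0.02). With so few members a class, these shares are not set apart from those of all genes.

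**Figure D2:**
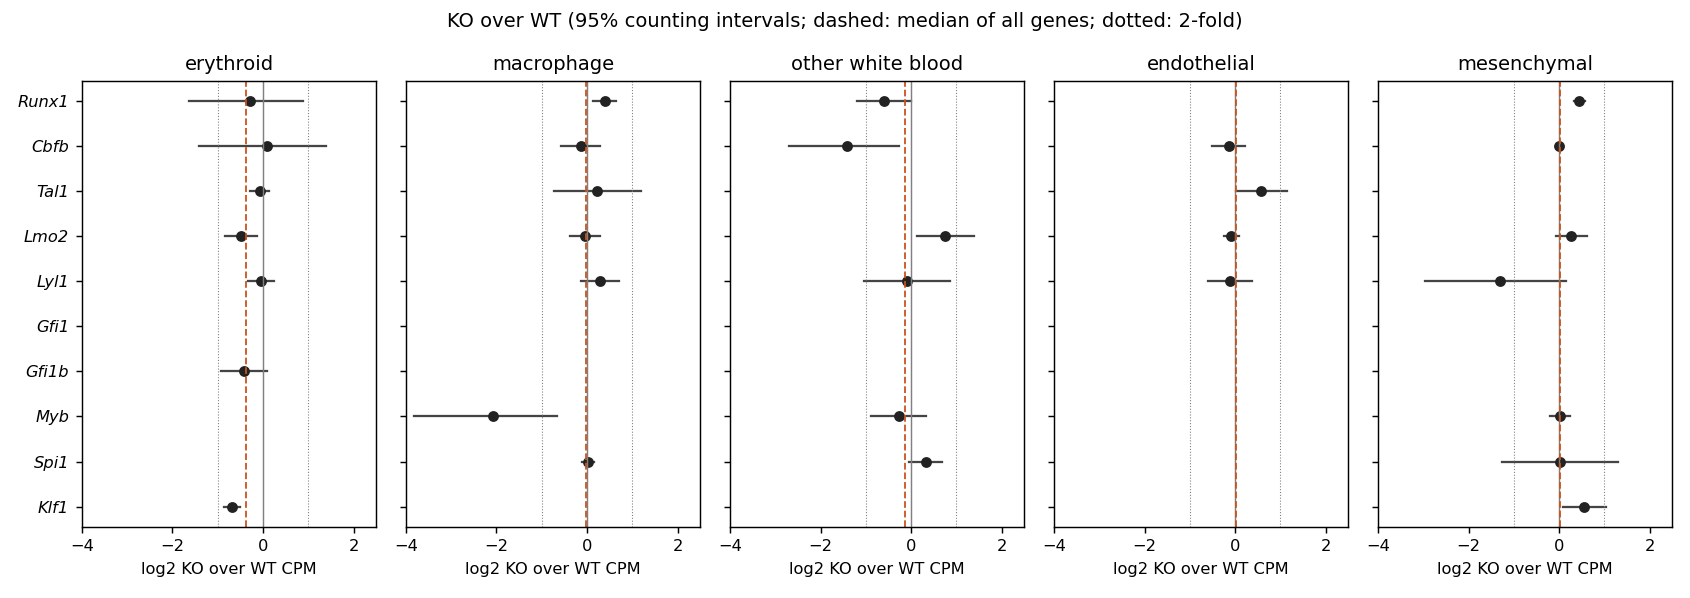
Log2 of KO over WT CPM for members with at least 20 UMIs, by class, with exact 95% intervals as bars, the median of all genes as a dashed line and 2-fold as dotted lines. Most points lie within 2-fold, Myb in macrophages (−2.08) and Cbfb in other white blood (−1.42) lie below it, and Runx1 lies above 0 in macrophages (0.39) and mesenchymal barcodes (0.44).

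Among blood classes, Runx1 was read in macrophages, in other white blood barcodes and in megakaryocytes, and hardly at all in erythroid barcodes. In macrophages the level was 103 CPM (90.7 to 116) in WT against 135 CPM (119 to 152) in KO, from 258 and 275 UMIs. These intervals did not overlap, and the KO library was the higher one, by 0.39 on the log2 scale (0.14 to 0.64). The share of macrophages with a Runx1 UMI was 68.1% in WT and 68.8% in KO (17.3% and 20.6% when each barcode was thinned to 2000 UMIs), against 3.51% and 4.15% of erythroid barcodes, with median depths of 16250.5 and 19201 UMIs in erythroid barcodes and 17597 and 15651.5 in macrophages. The largest number of Runx1 UMIs in 1 macrophage was 9 in WT and 16 in KO. In all 12 alternatives of processing the ratio kept its sign, between 0.29 and 0.43.

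Other white blood barcodes went the other way. Runx1 was at 118 CPM (91.2 to 151) in WT against 78.6 CPM (56.4 to 107) in KO, lower in KO by a log2 ratio of −0.59 whose interval (−1.19 to −0.00) all but reached 0. This class mixed cells, as markers of granulocytes or mast cells summed to 20934 CPM in WT against 58464 CPM in KO, with all 12 markers read in both, and their part in the ratio was not tested. Without those barcodes Runx1 was at 116 CPM in WT (14 barcodes) and 80.2 CPM in KO (9 barcodes), with overlapping intervals. With each barcode thinned to 2000 UMIs the ratio turned to 0.71, from the few Runx1 UMIs left, which do not settle its sign. In the 7 megakaryocytes of each library Runx1 stood at 105 and 90.1 CPM, from 7 and 20 UMIs, and the intervals overlapped widely.

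Endothelial barcodes that passed no other gate held almost no Runx1, with 3 UMIs in 3 of 69 WT barcodes and 4 UMIs in 3 of 72 KO barcodes. The levels were 1.49 CPM (0.31 to 4.35) and 1.29 CPM (0.35 to 3.30), and all 7 UMIs lay in barcodes with a UMI of Kit, the stem cell factor receptor. Endothelial barcodes with Kit were the deeper ones, with medians of 40778.5 UMIs in WT and 51233 in KO against 12206 and 13659 in those without. No endothelial barcode held a UMI of Gfi1 or Gfi1b, which allows up to 1.49 CPM in WT against 0.965 CPM in KO for each gene. A difference in Runx1 between the endothelial classes was not detectable at this depth.

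Cbfb, the common partner of the RUNX proteins, was broad where Runx1 was not. Its level was 47.2 CPM (45.9 to 48.6) in WT against 47.0 CPM (45.7 to 48.4) in KO mesenchymal barcodes, 54.6 and 49.6 CPM in endothelial barcodes and 45.1 and 40.7 CPM in macrophages. The intervals overlapped between the libraries in each of these classes. Erythroid barcodes were the exception, with 1.71 CPM (1.03 to 2.67) in WT against 1.80 CPM in KO, so the class with the most Klf1 held the least Cbfb. Cbfb in other white blood barcodes stood at 46.3 CPM in WT against 17.3 CPM in KO, from 25 and 9 UMIs, a log2 ratio of −1.42 (−2.71 to −0.28). That value rested on 34 UMIs and turned to 0.13 when barcodes were thinned, which leaves fewer UMIs still and does not settle the sign.

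**Figure D3:**
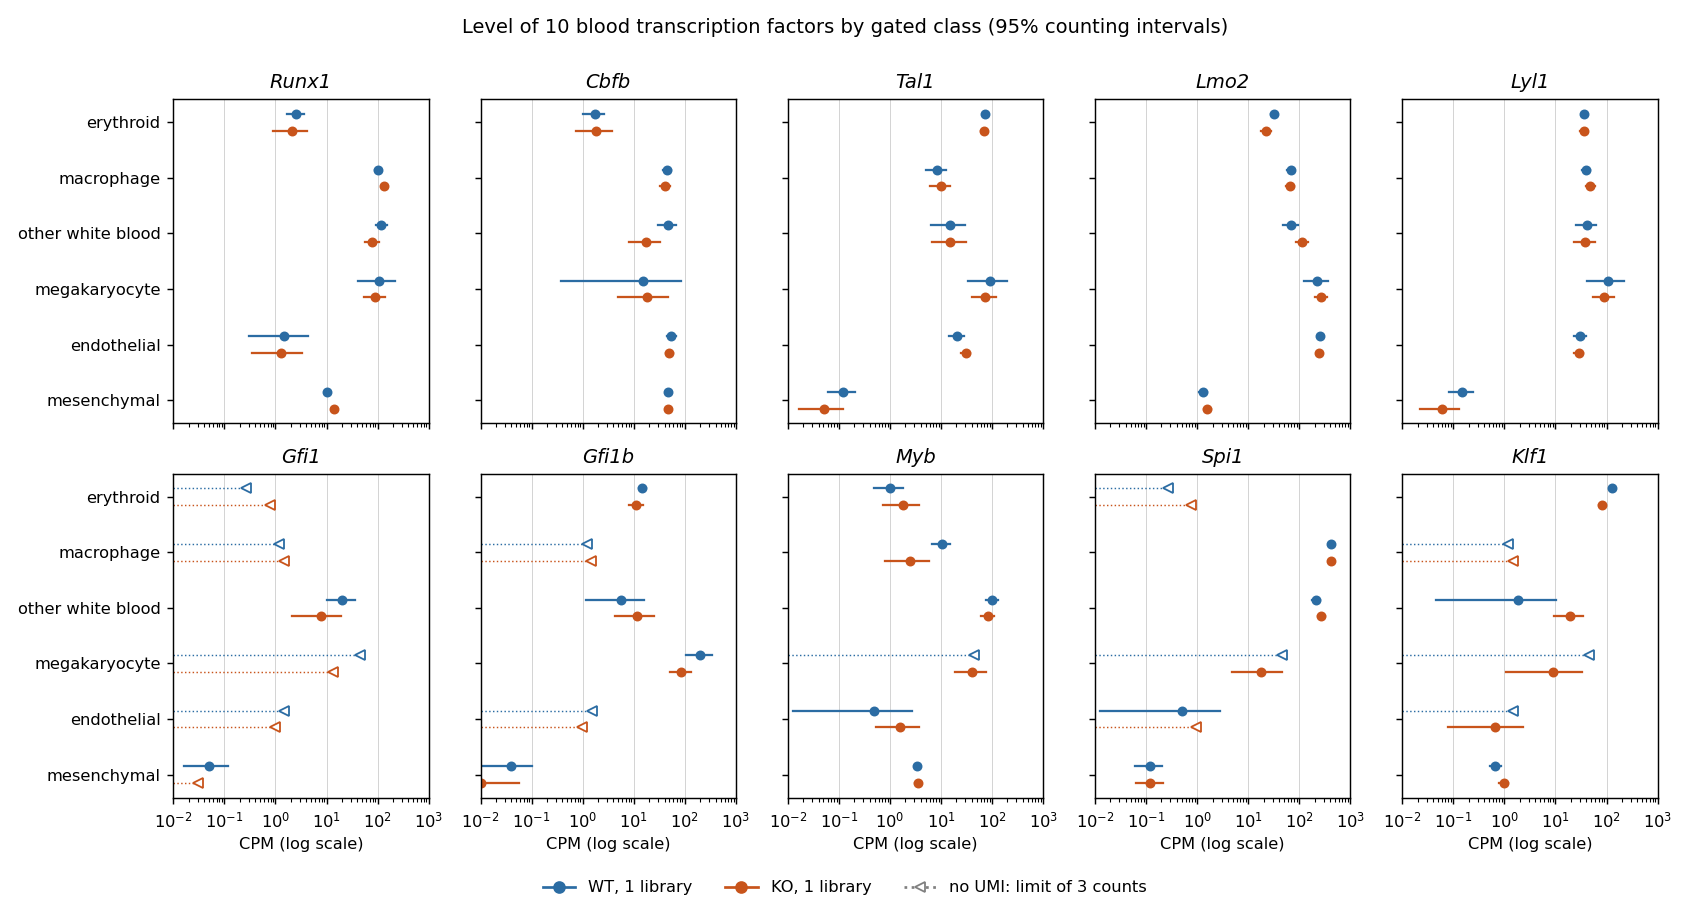
CPM of each member (log axis) in 6 classes, WT in blue and KO in orange, with exact Poisson 95% intervals as bars and open triangles at the 3-count limit where no UMI was read. Spi1 stands at 419.9 and 426 CPM in macrophages with no UMI in erythroid barcodes, Klf1 at 128 and 79.9 CPM in erythroid barcodes with no UMI in macrophages, and Cbfb lies between 17.3 and 54.6 CPM in every class except the erythroid and megakaryocyte ones.

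Tal1, Lyl1 and Lmo2, of which LMO2 bridges complexes with TAL1 or LYL1, were all read in erythroid, megakaryocyte and endothelial barcodes. In erythroid barcodes Tal1 stood at 73.9 CPM (68.9 to 79.1) in WT against 70.1 CPM (62.0 to 78.9) in KO, and Lyl1 at 36.8 and 35.6 CPM. Neither differed beyond its interval, with log2 ratios of −0.08 (−0.28 to 0.12) for Tal1 and −0.05 (−0.34 to 0.23) for Lyl1. Lmo2 was at 31.3 CPM (28.1 to 34.8) in WT against 22.4 CPM (18.0 to 27.6) in KO, lower in KO by a log2 ratio of −0.48 (−0.84 to −0.14). With the mean of the CPM of single barcodes this ratio was −0.85, and with globin and mitochondrial UMIs left out of the total it was −0.14. With each barcode thinned to 2000 UMIs, which leaves fewer UMIs of Lmo2, the ratio was −2.17. The whole erythroid profile was shifted, as globin UMIs took 61.9% of erythroid UMIs in WT and 70.0% in KO and the median gene had a log2 ratio of −0.38. Relative to that median Tal1 and Lyl1 were higher in KO by 0.30 and 0.33, Lmo2 differed by −0.10 and Gfi1b by −0.03.

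Endothelial barcodes were, after megakaryocytes in KO, the class with the highest Lmo2 level. In them Lmo2 stood at 256 CPM (235 to 279) in WT against 241 CPM (224 to 259) in KO, from 516 and 749 UMIs. A UMI of Lmo2 was found in 89.9% and 93.1% of endothelial barcodes, against 1.99% and 2.27% of mesenchymal barcodes with median depths of 14059 and 13217 UMIs. The Lmo2 ratio of −0.09 had an interval of −0.25 to 0.08, which covers counting error only. The top 3 barcodes of each library held 93 of the 516 WT and 144 of the 749 KO UMIs. Lyl1 was at 30.8 and 28.3 CPM, also with overlapping intervals.

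Tal1 was the one member whose interval left out 0 in endothelial barcodes. It stood at 20.4 CPM (14.6 to 27.6) in WT against 30.2 CPM (24.4 to 37.0) in KO, for a log2 ratio of 0.57 (0.03 to 1.14), and the intervals of the levels overlapped. A UMI was detected in 30.4% of the WT endothelial barcodes against 52.8% in KO, or 3.06% and 5.10% when each was thinned to 2000 UMIs, against 0.234% and 0.0931% of mesenchymal barcodes. The ratio was 0.94 (0.19 to 1.76) in endothelial barcodes with Kit and 0.17 (−0.70 to 1.06) in those without. Depth differed between the endothelial classes, and at a mitochondrial limit of 5%, which left 23 and 20 barcodes, the ratio was −0.23. With the UMIs of each barcode thinned the ratio was −1.65, from the few Tal1 UMIs left at that depth. The thinned shares above were higher in KO, so this ratio does not settle the sign. Where Tal1 was read, Lmo2 was read as well, in 21 of 21 WT and 38 of 38 KO endothelial barcodes, and Lyl1 in 17 and 27. The shares of both genes taken as independent give 18.9 and 35.4 for Lmo2 and 10.7 and 21.1 for Lyl1. These products take no account of the depth of each barcode, so a count above them cannot be read as shared expression.

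Megakaryocytes held all of these, with Lmo2 at 225 and 266 CPM, Lyl1 at 105 and 90.1 CPM and Tal1 at 90.1 and 72.1 CPM. With 66599 UMIs in the 7 WT barcodes, none of these could be told apart between the libraries. In macrophages Lmo2 stood at 68.6 and 66.8 CPM and Lyl1 at 39.9 and 48.6 CPM, while Tal1 was near 8.37 and 9.82 CPM, all with overlapping intervals. Lmo2 in other white blood barcodes was at 68.5 CPM in WT against 115 CPM in KO, for a log2 ratio of 0.75 (0.13 to 1.38). A single KO barcode gave 27 of the 60 KO UMIs, and with KO barcodes that held a Pdgfrb UMI removed, which drops it, the ratio was 0.07.

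The repressors Gfi1 and Gfi1b overlapped in the other white blood barcodes, where both WT barcodes with Gfi1b also held Gfi1 and 0 KO barcodes held both. Gfi1, which favours granulocyte fate, had 22 UMIs in the whole WT library and 7 in KO, of which 11 and 4 were in other white blood barcodes. All 11 of these WT UMIs lay in 4 barcodes with granulocyte or mast cell markers, and the ratio of −1.41 had an interval of −3.51 to 0.35. No Gfi1 UMI was read in erythroid barcodes, macrophages, megakaryocytes or endothelial barcodes of either library.

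Gfi1b, required for red cells and platelets, was read in erythroid, megakaryocyte and other white blood barcodes. In erythroid barcodes it stood at 14.8 CPM (12.6 to 17.2) in WT against 11.1 CPM (8.02 to 14.9) in KO, and in megakaryocytes at 195 CPM (104 to 334) and 85.6 CPM (51.5 to 134). In other white blood barcodes it had 3 and 6 UMIs, or 5.55 and 11.5 CPM. The erythroid ratio was −0.41 (−0.93 to 0.08), and 0.54 with each barcode thinned. The megakaryocyte ratio of −1.19 (−2.28 to −0.05) rested on 3 WT and 2 KO barcodes with a Gfi1b UMI, so those few barcodes decide it. No Gfi1b UMI was read in macrophages of either library, up to 1.20 and 1.47 CPM.

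Myb was read in other white blood barcodes at 99.9 CPM (75.1 to 130) in WT against 82.4 CPM (59.7 to 111) in KO, with overlapping intervals. The split by granulocyte or mast cell markers turned the direction, as Myb was at 158 CPM in WT against 80.7 CPM in KO barcodes with such markers (−0.97, −1.76 to −0.22) and at 32.0 and 84.5 CPM in those without (1.40, 0.15 to 2.79). These are 10 and 13 barcodes with the markers and 14 and 9 without, and a few barcodes carried most UMIs, with 28 of 54 WT and 26 of 43 KO UMIs in the top 3 of each library. The kinds of cell in the class and the level of Myb per cell cannot be told apart here.

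In macrophages Myb was at 10.4 CPM (6.77 to 15.2) in WT against 2.45 CPM (0.80 to 5.73) in KO, from 26 UMIs in 18 barcodes and 5 UMIs in 5 barcodes. The intervals did not overlap, and the KO library was lower by a log2 ratio of −2.08 (−3.82 to −0.67), which kept its sign in the 11 alternatives that gave a value (−2.70 to −2.02). Embryonic macrophages of yolk sac origin are known to arise without Myb. In WT macrophages granulocyte or mast cell markers summed to 1303 CPM, with 7 of 12 read and Elane, Cma1, Cpa3, Ms4a2 and Ms4a3 at 0, and in KO macrophages to 157 CPM, with 5 of 12 read and Ctsg, Cma1, Cpa3, Ms4a2, Fcer1a, Ms4a3 and Hdc at 0. The sum does not stand for each marker. Mpo of this list was at 31.1 CPM in WT against 55.95 CPM in KO macrophages, and Elane was read in KO only. The part of these markers in the Myb values was not tested.

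Among barcodes of 1 class, Spi1 was nearly confined to macrophages and other white blood, and its level was alike in both libraries. In macrophages it stood at 419.9 CPM (395 to 446) in WT against 426 CPM (398 to 455) in KO, for a log2 ratio of 0.02 (−0.11 to 0.15). A Spi1 UMI was found in 95.04% and 91.4% of macrophages and in 0 of 656 WT and 0 of 193 KO erythroid barcodes, which allows shares of up to 0.457% and 1.55%. Per barcode the macrophage median was 424 CPM in WT against 383 CPM in KO. In other white blood barcodes Spi1 was at 216 and 270.3 CPM, again with overlapping intervals, and single endothelial UMIs (1 in WT, 0 in KO) were at the limit of detection.

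Runx1 and Spi1 shared macrophages barcode by barcode. Of 96 WT macrophages with a Runx1 UMI, 95 also held Spi1, and of 88 in KO all 88 did. Since Spi1 was found in nearly every macrophage, 91.2 and 80.4 shared barcodes are given by the shares of both genes taken as independent, without regard to depth. Among other white blood barcodes with Runx1, 14 of 15 in WT held Spi1, and 16 of 16 in KO.

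Klf1, summed over erythroid barcodes, was lower in the KO library. It stood at 128 CPM (121 to 135) in WT against 79.9 CPM (71.2 to 89.3) in KO, from 1423 and 310 UMIs. The intervals did not overlap, and the KO library was lower by a log2 ratio of −0.68 (−0.86 to −0.50). A Klf1 UMI was detected in 80.6% of the WT erythroid barcodes against 65.8% in KO and in 0 of 141 WT and 0 of 128 KO macrophages, up to 2.13% and 2.34%. With globin and mitochondrial UMIs left out of the total, Klf1 was at 346 CPM in WT against 273 CPM in KO, and the ratio shrank to −0.34. Relative to the median of all genes it was −0.30 under both scalings, and 26.7% of the 7661 genes tested had a ratio as low or lower.

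The erythroid classes also differed in make-up. Hbb-y is the embryonic β-like globin, and erythroid barcodes were ordered by the share of their UMIs it took and split into tertiles over both libraries. WT put 246, 232 and 178 barcodes in the lowest, middle and highest tertile, and KO put 37, 51 and 105. Klf1 was at 148, 128 and 92.9 CPM in WT and 139, 79.2 and 55.7 CPM in KO, from the lowest to the highest tertile. Hbb-y UMIs are part of the total, so a fall of CPM in this order is in part built in and is not a result on Klf1. In the lowest tertile the intervals of the libraries overlapped (137 to 160 and 115 to 167), and in the middle and highest tertiles they did not. Without globin UMIs Klf1 was at 336, 355 and 302 CPM in WT, with no steady fall, and at 302, 259 and 242 CPM in KO. At this scaling it was lower in KO in each tertile. The KO values rest on 115, 84 and 111 UMIs. No intervals were computed at this scaling, so the separation of the libraries given above does not carry over to it.

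Tal1 in the same tertiles was at 83.1, 75.7 and 55.6 CPM in WT and 94.4, 81.1 and 54.1 CPM in KO, with overlapping intervals in each. Without globin UMIs Tal1 was at 188, 209 and 181 CPM in WT and 205, 266 and 235 CPM in KO, with no steady fall. Lmo2 without globin UMIs was at 90.4, 77.1 and 70.9 CPM in WT and 110, 71.1 and 47.9 CPM in KO. With all UMIs in the total, Lmo2 was at 39.9, 27.9 and 21.8 CPM in WT and 50.9, 21.7 and 11.03 CPM in KO. The intervals overlapped in each tertile, barely so in the highest (16.6 to 28.2 in WT, 6.91 to 16.7 in KO). Runx1 had 25 of its 28 WT erythroid UMIs in the lowest globin tertile and 0 in the highest, and its 8 KO UMIs were 2, 4 and 2 from the lowest to the highest. Myb had 9 of 11 WT and 7 of 7 KO UMIs in the lowest tertile, the 9 of WT in 1 barcode that also held 4 UMIs of Kit.

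**Figure D4:**
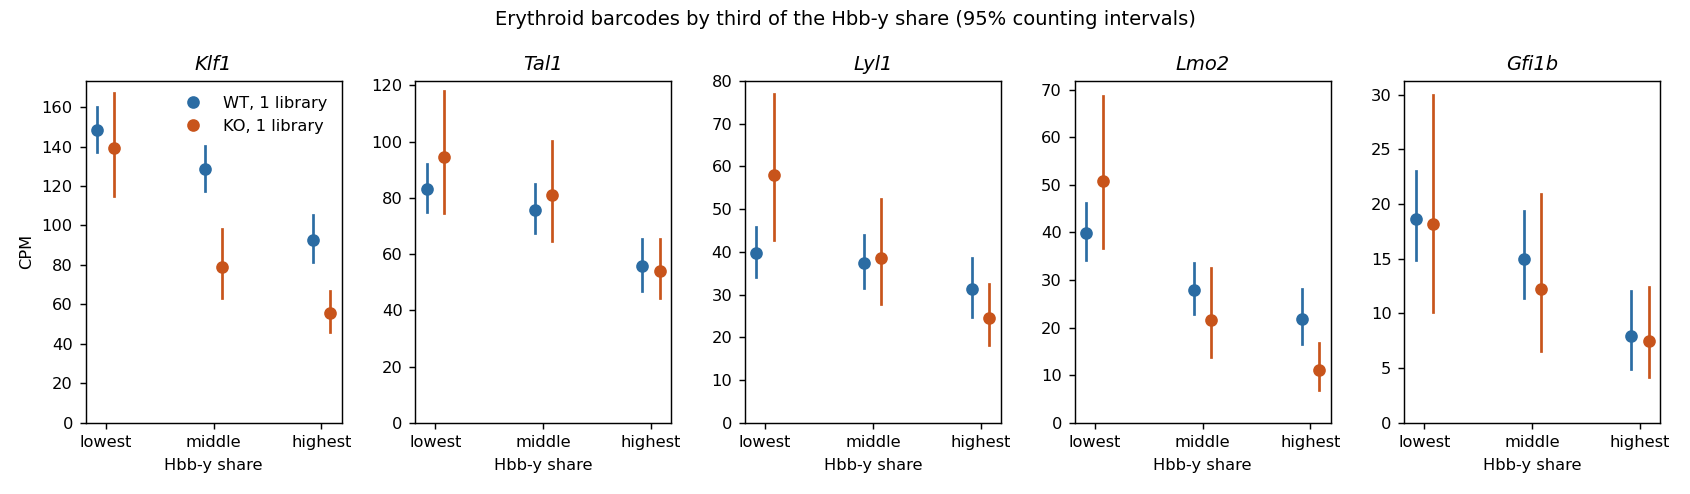
CPM of Klf1, Tal1, Lyl1, Lmo2 and Gfi1b in erythroid barcodes split into tertiles by the share of UMIs from Hbb-y, WT in blue and KO in orange, with exact Poisson 95% intervals as bars. Klf1 is at 139 to 148 CPM in the lowest tertile of both libraries and at 55.7 CPM (KO) and 92.9 CPM (WT) in the highest, while the Tal1 intervals overlap in every tertile. Hbb-y UMIs are part of the total, so a fall of CPM toward the highest tertile is in part built in.

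Genes that KLF1 is known to activate were measured for 11 of 12 in erythroid barcodes, and 0 of 11 lay past 2-fold, against 14.3% of all genes. Their median log2 ratio was −0.45, beside −0.38 for all genes. The adult β-globin genes were higher in KO, Hbb-bs at 8315 CPM in WT against 14691 CPM in KO (0.82) and Hbb-bt at 29861 and 47317 CPM (0.66), though reads of this near-identical pair may be split between them. The red cell adhesion gene Icam4 was at 148 and 86.0 CPM (−0.78) and the erythropoietin receptor gene Epor at 51.3 and 29.9 CPM (−0.78), both lower in KO, and the embryonic globin Hbb-bh1 was at −0.52. The transferrin receptor gene Tfrc had a ratio of −0.01 (−0.20 to 0.17).

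Genes of the myeloid program downstream of SPI1 and RUNX1 were measured for 10 of 12 in macrophages. Of these 1 lay past 2-fold, against 3.91% of all genes, Il7r (3.59 and 8.83 CPM, from 9 and 18 UMIs). Their median ratio was −0.12. Lyz2, the macrophage lysozyme, was at 1305 CPM in WT against 886 CPM in KO (−0.56, −0.64 to −0.47), Ly86 at 459.8 and 305 CPM (−0.59) and Cd14 at 87.3 and 63.8 CPM (−0.45). Mpo, the myeloperoxidase of granulocytes, went the other way, at 31.1 and 55.95 CPM (0.85, 0.42 to 1.28). The receptor gene Csf1r was at 569 and 527 CPM, with an interval of −0.23 to 0.00. Csf1r is also a marker of the macrophage gate, so its level in this class depends in part on the gating. In other white blood barcodes 1 of 9 lay past 2-fold, where 9.94% of all genes did. This was Lyz2, at 894 CPM in WT against 4426 CPM in KO (2.31). Nearly all of its UMIs were in barcodes with granulocyte or mast cell markers (477 of 483 and 2308 of 2309).

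A small set of barcodes passed both the endothelial and a leukocyte gate, 6 in WT and 4 in KO, and every one of the 10 held Runx1. Their Runx1 UMIs were 4, 3, 6, 2, 2 and 4 in WT and 5, 2, 9 and 1 in KO, or 49.0 CPM (30.4 to 74.96) and 35.3 CPM (20.5 to 56.5). Median depth was 77116 UMIs in WT and 117120 in KO, several times that of the libraries. No doublet caller was run, so a droplet with an endothelial and a blood cell cannot be told apart from 1 cell with both programs. The 10 barcodes held 8, 11, 3, 3, 2 and 1 mesenchymal markers in WT and 0, 6, 11 and 12 in KO, in the order of their Runx1 UMIs above, and the third WT barcode held 10 erythroid markers. The 3 with 11 or 12 mesenchymal markers had no Cdh5 UMI and 6 or 7 endothelial markers.

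These 10 barcodes were of 2 kinds. Of the 10, 2 in WT and 1 in KO held at most 4 of 12 megakaryocyte markers and had UMIs of Gfi1 (1 and 2 in WT, 2 in KO), Myb (7 and 4, and 4) and Spi1 (3 and 9, and 5) with no Gfi1b. They also held 9, 12 and 7 UMIs of Kit and 62, 5 and 65 of Cdh5, the gene of VE-cadherin. The other 7 held 6 to 12 megakaryocyte markers, no Gfi1 and no Myb, and 6 of them held Gfi1b. One of the 3 had 23611 UMIs, near the depth of single-class barcodes, and this one held 3 UMIs of Ptprc (CD45).

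Barcodes that held many members at once were found among white blood, megakaryocyte and 2-gate barcodes. In WT an other white blood barcode of 27391 UMIs with 5 of Kit and none of Ptprc held 9 of the 10 members, lacking Klf1. In KO the richest of the other white blood barcodes held 8 members, with 27 UMIs of Lmo2, 10 of Myb, 8 of Klf1 and 5 of Tal1. That barcode gave 8 of the 10 Klf1 UMIs of its class and also held 1 UMI of Pdgfrb. Barcodes with 5 or more members made up 7 of 24 WT and 8 of 22 KO other white blood barcodes, 33 of 141 and 25 of 128 macrophages, and 2 of 69 and 6 of 72 endothelial barcodes.

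Outside blood, Runx1 was read in the mesenchyme at a lower level than in macrophages, yet above what free RNA was estimated to give. In mesenchymal barcodes it stood at 10.4 CPM (9.76 to 11.03) in WT against 14.1 CPM (13.4 to 14.9) in KO, from 1043 and 1396 UMIs. The RNA of near-empty barcodes (100 UMIs or fewer), a measure of free RNA, would give 0.107 and 0.0728 CPM. A Runx1 UMI was found in 12.5% and 14.97% of mesenchymal barcodes, or 1.88% and 2.51% after thinning, against 0.471% and 0.369% of thinned erythroid barcodes. The KO library was higher by a log2 ratio of 0.44 (0.33 to 0.56), within 2-fold, and between 0.34 and 0.90 in the alternatives. Leukocyte markers were alike in both mesenchymal classes, at sums of 8.14 and 8.24 CPM with all 12 read.

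The direction was not the same in every mesenchymal subclass. In barcodes with smooth muscle markers Runx1 was at 14.6 CPM in WT against 23.6 CPM in KO (0.69, 0.43 to 0.96). In barcodes with sclerotome markers, the part of the somite that forms the vertebrae, it was at 10.8 and 16.6 CPM (0.62, 0.39 to 0.85), and in mesenchymal barcodes of no named subclass at 8.68 and 12.1 CPM (0.48, 0.31 to 0.65). Barcodes with at least 3 of 6 coelomic or gonadal markers went the other way, at 16.2 CPM in WT against 9.56 CPM in KO (−0.76, −1.24 to −0.30). The first 3 held 445, 1015 and 3466 WT and 314, 1476 and 3542 KO barcodes, and the coelomic or gonadal one 2.69% of the WT and 1.43% of the KO library. A gastro-splenic subclass of 81 WT barcodes had 42 Runx1 UMIs, and its 1 KO barcode had 0. The differences between subclasses were not tested.

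**Figure D5:**
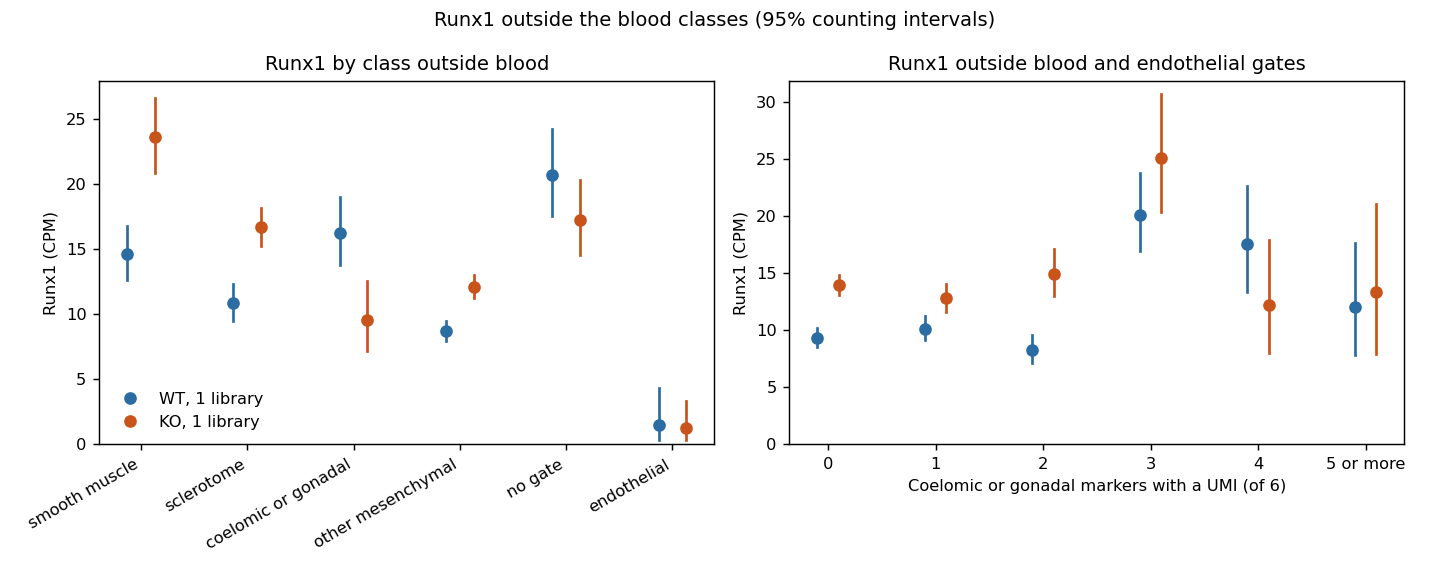
Runx1 CPM in mesenchymal subclasses, ungated and endothelial barcodes (left) and by the number of coelomic or gonadal markers detected (right), WT in blue and KO in orange, with exact Poisson 95% intervals as bars. The KO points lie above the WT points in smooth muscle, sclerotome and other mesenchymal barcodes and below them in coelomic or gonadal ones, and the levels at 3 markers (20.2 and 25.2 CPM) lie above those at 0 markers (9.34 and 14.0 CPM). At 4 and 5 markers the levels were 17.6 and 12.04 CPM in WT and 12.2 and 13.4 CPM in KO, the KO ones below that at 0 markers.

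Over all barcodes outside the blood and endothelial gates, those with at least 3 coelomic or gonadal markers held Runx1 at 18.0 CPM (15.7 to 20.6) in WT against 19.2 CPM (16.2 to 22.7) in KO. Barcodes with fewer held 9.40 CPM (8.84 to 9.97) and 13.7 CPM (13.1 to 14.4). The intervals did not overlap in either library. In KO the difference rested on the 98 barcodes with exactly 3 markers, whose 97 Runx1 UMIs lay in 17 barcodes. Counting intervals do not cover such clumping. After thinning, the shares with a Runx1 UMI were 2.41% and 2.33% in KO and 3.19% and 1.84% in WT. Here the 2 libraries overlapped at 3 or more markers. The lower KO level of coelomic or gonadal barcodes was thus seen within the mesenchymal class and not over this wider set. The KO level of the wider set rested largely on those 17 barcodes. Cbfb was flat over the same split, at 49.6 and 47.2 CPM in WT and 49.6 and 45.5 CPM in KO.

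Runx1 UMIs were concentrated in few of these barcodes. Barcodes with at least 3 Runx1 UMIs, a group chosen after the values were seen and therefore only described, numbered 118 of 7178 in WT and 158 of 7651 in KO and held 38.9% and 44.5% of the Runx1 UMIs outside blood and endothelium. They were deep, with medians of 41060.5 and 32354.5 UMIs against 11928 and 11446 in barcodes without Runx1, and held up to 21 and 46 Runx1 UMIs each. Of them, 97 and 132 were mesenchymal and 29 and 16 held at least 3 coelomic or gonadal markers. Compared in CPM with barcodes without Runx1, they had more Kctd14 (392 against 6.89 CPM in WT, 299.8 against 13.8 CPM in KO), Amhr2, the receptor of anti-Müllerian hormone (58.3 against 1.86, 20.4 against 1.68 CPM), and Gata4, a factor of the gonadal ridge (32.3 against 3.33, 22.3 against 2.34 CPM). Not every gene compared was higher in them in this way, as Tcf21 was at 69.2 against 88.8 CPM in WT and 27.2 against 52.1 CPM in KO, and Upk3b at 26.3 against 13.1 and 8.59 against 8.04 CPM. Gata4 was read in 29 of the 118 WT and 19 of the 158 KO barcodes of this group, and Amhr2 in 29 and 22, so their levels do not stand for the whole group. Spi1 had no UMI in the group, and Ptprc had 1 in WT and 0 in KO. The group lies outside the blood gates, whose markers include Ptprc, so these low counts follow in part from that choice.

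Of the RUNX family, Runx2, which directs bone formation, stood apart in mesenchymal barcodes more than Runx1. It was at 5.09 CPM in WT against 12.2 CPM in KO, for a log2 ratio of 1.26 (1.11 to 1.41). Runx3 was at 0.547 and 1.07 CPM (0.97, 0.49 to 1.47), so all 3 family members were higher in the KO mesenchyme, while Cbfb had a ratio of −0.01 (−0.06 to 0.05). Runx3 in other white blood barcodes was at 205 and 136 CPM (−0.59, −1.04 to −0.15), lower in KO. The ratio of Runx1 in that class was also below 0, but its sign was not settled. The class held 24 and 22 barcodes of mixed kinds.

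Myb was also read in mesenchymal barcodes above the level that free RNA was estimated to give. It stood at 3.44 CPM (3.09 to 3.82) in WT against 3.47 CPM (3.11 to 3.85) in KO, against 0.0464 and 0.0243 CPM expected from free RNA. The ratio of 0.01 had an interval of −0.21 to 0.23, and was −0.25 at a mitochondrial limit of 5% and −0.59 after thinning. Lmo2 was at 1.32 and 1.59 CPM, from 133 and 157 UMIs, where free RNA was estimated to give 0.0929 and 0.111 CPM.

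Klf1 UMIs were also read in the mesenchyme, almost always 1 to a barcode. There were 67 UMIs in 67 WT barcodes and 97 UMIs in 94 KO barcodes, or 0.667 CPM (0.517 to 0.847) and 0.981 CPM (0.795 to 1.20). Free RNA would give 6.82 and 2.74 UMIs. The ratio was 0.56 (0.09 to 1.03), and −0.13 at a mitochondrial limit of 5%. Globin in the barcodes that held Klf1 summed to 263 CPM in WT against 104 CPM in KO, and to 393 and 171 CPM in all mesenchymal barcodes. Those with Klf1 were deeper, with medians of 20847 and 18023 UMIs against 14059 and 13217, and barcodes with Runx1 also had less globin (283 and 123 CPM). The 11 erythroid markers, all read, summed to 3.98 and 1.60 CPM in the mesenchymal barcodes, and their part in the Klf1 level was not tested.

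The remaining members had 15 UMIs or fewer in each mesenchymal class. Tal1 had 12 and 5 UMIs where free RNA gives 6.46 and 2.74, Lyl1 15 and 6 where it gives 5.03 and 4.46, and Spi1 12 and 12 where it gives 6.10 and 3.77. Gfi1b had 4 UMIs and 1 UMI, and Gfi1 had 5 in WT and 0 in KO, each in a barcode of its own. No difference between the libraries was detectable for these 5 at such counts.

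Partners of the members, a list of 38 genes of complexes and networks, were counted in the same classes. In erythroid barcodes 2 of 22 with enough UMIs lay past 2-fold, against 14.3% of all genes, with a median of −0.25. The fetal globin repressor Bcl11a was higher in KO (2.79 and 6.96 CPM, 1.32), and the homeobox gene Meis1 had a ratio of −1.29 from 35 and 5 UMIs (−2.999 to 0.07). The LMO2 partners Ldb1 (12.0 and 6.70 CPM, −0.84) and Ssbp2 (15.03 and 8.76 CPM, −0.78) and the deacetylase Hdac2 (19.7 and 11.6 CPM, −0.77) were lower in KO, with intervals that left out 0. Each of these intervals held −0.38, the median of all genes in erythroid barcodes, so they are not set apart from that shift. Ssbp3 (60.8 and 53.3 CPM), Runx1t1 (43.0 and 33.0 CPM) and Klf3 (35.8 and 33.5 CPM) had log2 ratios of −0.19, −0.38 and −0.10.

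In macrophages 0 of 29 partners lay past 2-fold, against 3.91% of all genes, with a median of 0.02. Kdm1a, the demethylase that works with GFI1 proteins, was at 52.6 and 67.7 CPM (0.36). The E protein gene Tcf3 (42.3 and 23.6 CPM, −0.84), the myeloid factor Cebpb (456 and 304 CPM, −0.58) and Klf2 (102 and 71.7 CPM, −0.51) were lower in KO. Irf8, a macrophage lineage factor, was at 154 and 176 CPM and Klf6 at 167 and 149 CPM, with intervals that held 0. Of the partners in other white blood barcodes, 2 of 25 lay past 2-fold, against 9.94% of all genes, with a median of 0.01. Both were higher in KO, Hhex (37.0 and 90.1 CPM, 1.28) and Klf6 (27.8 and 63.3 CPM, 1.19). Hdac2 (96.2 and 49.8 CPM, −0.95) and Tcf4 (96.2 and 57.5 CPM, −0.74) were lower, and Lmo4 (405 and 456 CPM) and Cebpb (137 and 138 CPM) had intervals that held 0.

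Endothelial barcodes had 1 of 28 partners past 2-fold, against 3.6% of all genes, with a median of −0.04. This was Meis1 (19 and 14 UMIs, −1.07, −2.17 to 0.01). Meis1 is named in both classes because so few partners lay past 2-fold, after its values were seen. Mecom, a stem cell and arterial endothelial factor also known as Evi1, was lower in KO (139 and 74.0 CPM, −0.90, −1.16 to −0.65), as were Tcf3 (147 and 111 CPM, −0.41) and the flow-responsive factor Klf2 (320 and 287 CPM, −0.15). Klf3 (78.0 and 105 CPM, 0.42) and Tcf12 (83.9 and 102 CPM, 0.28) were higher. Tcf4, an E protein that pairs with TAL1, was at 598 and 554 CPM and Kdm1a at 152 and 164 CPM.

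In mesenchymal barcodes all 38 partners had enough UMIs and 2 lay past 2-fold, against 5.78% of all genes. These were Runx2 and the lymphoid factor Ikzf1 (19 and 6 UMIs, −1.64). The median was 0.12 beside 0.02 for all genes. The ETS factor Erg (1.03 and 1.91 CPM, 0.88) was higher in KO, and Irf8 (2.80 and 1.44 CPM, −0.96) and Klf6 (44.5 and 35.0 CPM, −0.34) were lower. Tcf4 was at 303 and 377 CPM (0.32), Tcf12 at 195 and 211 CPM (0.12) and Hdac2 at 206 and 191 CPM (−0.10), each within 2-fold.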

How the data were processed

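Whole E11 AGMs of WT and KO embryos were measured by 10x 3′ sequencing. The authors aligned the reads to mm10/GRCm38 with Cell Ranger 3.1.0 and deposited raw UMI counts of every gene and barcode, before any calling of cells, not normalized. The libraries held 179743201 (WT) and 174597654 (KO) UMIs. The 10 members and all gene lists were chosen with earlier results of these data known.

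Barcodes with at least 2000 UMIs and under 10% mitochondrial UMIs were kept. A barcode passed a gate with UMIs of at least 5 erythroid, 5 leukocyte, 6 macrophage, 5 megakaryocyte, 6 endothelial or 4 mesenchymal markers. These minimums were set from the marker distributions after the files were seen. Ahsp was not among the counted genes, which left 11 of 12 erythroid markers. White blood barcodes without the macrophage gate and megakaryocyte gate are called other white blood. Barcodes of 2 or more gates were set apart, no doublet caller was run, and 24 barcode sequences were found in both libraries.

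UMIs were summed over a class and scaled to 1000000 (CPM). Intervals are exact at 95%, Poisson for CPM, binomial for shares and conditional binomial for ratios, and cover counting error only. Where no UMI was read, 3 counts set the limit. Each barcode was also thinned to 2000 UMIs. Ratios were called past 2-fold for genes with at least 20 UMIs. Partner genes named in a class are up to 3 with the largest increase and decrease whose interval left out 0 and the 3 with the highest level. A gene this rule names in endothelial barcodes is not reported here. The intervals, gates and thinning were tested on simulated data. Alternatives changed the UMI, mitochondrial and marker minimums, the handling of 2-gate, deep, shared or Pdgfrb-positive KO barcodes (which the study removed), summing, depth, free RNA and scaling. Python 3.11.15, numpy 2.4.6, scipy 1.17.1, pandas 2.3.3 and matplotlib 3.10.9 were used.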

Additional observations from a re-analysis of the deposited data

Results flagged for a closer look

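Within a gene, the KO over WT ratio lay above 0 in some classes and below 0 in others, each with an interval that left out 0. The differences between classes were not tested, and the intervals give counting error only. Runx1 had log2 ratios of 0.39 in macrophages, 0.44 in mesenchymal barcodes, 0.69 in smooth muscle, 0.62 in sclerotome and 0.48 in other mesenchymal barcodes, against −0.59 in other white blood and −0.76 in coelomic or gonadal barcodes. Lmo2 had ratios of 0.75 in other white blood and 0.97 in sclerotome barcodes (14 and 39 UMIs), against −0.48 in erythroid barcodes. Klf1 had ratios of 0.56 in all mesenchymal barcodes and 0.88 in those of no named subclass, against −0.68 in erythroid barcodes, where the median of all genes was −0.38. The white blood values of Runx1 and Lmo2 rest on 24 and 22 barcodes, and the mesenchymal values of Klf1 on single UMIs. Groups of 4 or more samples, in which a sample could stand apart, do not exist here.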

How the results depend on the processing

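No paired analysis was possible because each genotype has 1 library, and no library could be left out for the same reason. In all, 12 alternatives gave 331 values of 30 results, of which 289 stayed within their error or within 1.5 times their count, 37 moved and 5 with an interval that had left out 0 changed sign. Ratios whose interval held 0 also crossed it. At a mitochondrial limit of 5%, which kept 3600 WT and 2915 KO barcodes, the log2 ratio of erythroid shares was −1.45, 2 members lay past 2-fold in other white blood and 0 in mesenchymal barcodes, the percent of Runx1 UMIs outside blood and endothelium was 57.3 in WT and 69.5 in KO, and Tal1 in endothelial (−0.23) and Klf1 in mesenchymal barcodes (−0.13) changed sign. With 1 marker fewer, 2 members lay past 2-fold in other white blood, and with 1 marker more, 0 in mesenchymal barcodes. With 2-gate barcodes given to 1 class, 3 lay past 2-fold in other white blood, 1 in endothelial and 2 in mesenchymal barcodes. With the mean of CPM, 0 did in other white blood. With thinning, 1 did in erythroid (Lmo2, −2.17) and 0 in other white blood barcodes. Cbfb (0.13) and Runx1 (0.71) in other white blood, Tal1 in endothelial (−1.65), Gfi1b (0.54) and Lyl1 (0.29) in erythroid and Myb in mesenchymal barcodes (−0.59) were then of the other sign. The thinned ratios in other white blood and endothelial barcodes rest on the few UMIs left and do not settle the sign. With Pdgfrb-positive KO barcodes removed, 0 did in mesenchymal barcodes, the ratio of mesenchymal shares was 0.0196, and 75.8% of KO Runx1 UMIs lay outside blood and endothelium. Depth limits Gfi1 in all classes, and every member in megakaryocytes and other white blood barcodes.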

Other observations

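Over 10 classes in 2 libraries, genes were compared with Runx1, Klf1 and Spi1 by the Pearson correlation of log2(CPM + 1), among 17098 genes that are no marker and no member. The 20 points share libraries and depth, so the values are descriptions. Most like Runx1 were Susd3 (0.93), Arhgap45 (0.91), Khk (0.89), Dcxr (0.89) and Rab32 (0.89). Most like Klf1 were Mylk3 (0.93), the red cell pyruvate kinase gene Pklr (0.92), Icam4 (0.92), Gm10390 (0.91) and Il1bos (0.91). Most like Spi1 were BC035044 (0.99), Wdfy4 (0.98), Gm26740 (0.98), Psmb9 (0.98) and Tnfrsf13b (0.98). Between members the same measure was 0.94 for Tal1 and Lyl1, 0.93 for Lmo2 and Lyl1, 0.88 for Tal1 and Lmo2, 0.74 for Gfi1 and Myb, 0.73 for Runx1 and Spi1, 0.11 for Runx1 and Cbfb and −0.84 for Cbfb and Klf1.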
